A study of Mus musculus with 8 samples.

Results

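The replication-dependent histone genes of mouse tubuloid cultures were examined by RNA-Seq. The 68 member genes, listed as 72 transcripts, were those whose symbols begin with Hist1h, Hist2h, Hist3h or Hist4h, out of 24063 genes in the deposited tables. By the protein they encode, 6 are H1, 18 are H2A, 19 are H2B, 12 are H3 and 13 are H4 genes. Of these genes, 54 carry the Hist1h, 10 the Hist2h, 3 the Hist3h and 1 the Hist4h prefix. One H2B member, *Hist3h2bb-ps*, has the symbol of a pseudogene.

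Replication-dependent histone genes supply the proteins that package newly made DNA, and they are known for being transcribed mainly during S phase. H2A, H2B, H3 and H4 form the nucleosome core, and H1 binds the linker DNA between nucleosomes. Their mRNAs typically end just after a conserved stem-loop, without the poly(A) tail that other mRNAs carry, whereas replacement variants such as H3.3 come from polyadenylated mRNAs made throughout the cell cycle.

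All 8 cultures were tubuloids, 3D structures that tubule fragments of kidneys from postnatal day 7 to 10 had formed in Matrigel, and were collected on culture day 7. All carried the genotype Pkd2fl/fl Pax8rtTA TetOCre mTmG, that is, floxed *Pkd2*, a *Pax8*-driven doxycycline-dependent activator, the Cre that this activator switches on, and a fluorescent reporter. The 4 GDNF cultures (numbers 6, 12, 17 and 22) received a 24 h pulse of GDNF, the growth factor that drives outgrowth of the collecting duct system. The 4 control cultures (numbers 3, 7, 14 and 21) received growth factor medium without it. By the authors' account, collection came 6 days after the pulse, so the values describe a late state. The comparison asked how the pulse altered gene expression, and nothing in the labels says that the cultures came from separate animals, so p-values measure the spread between these cultures.

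Libraries were made with SMART-Seq v4 and poly-A selection, so the values below describe histone RNA that a poly-A based method can capture, and histone mRNA ending at the stem-loop may be missed. Total counts ranged from 72991721 to 97490625 per culture. Transcripts of at most 1000 bp, as in 59 of the 68 members, took 10.5 to 12.8% of counts in GDNF cultures and 12.6 to 18.3% in control cultures, with the highest share in control culture 3. That culture also had the lowest normalization factor, 0.790, against 0.963 to 0.982 in the other controls and 1.07 to 1.11 in GDNF cultures. The epithelial marker *Epcam* was present in every culture, at 66.0 to 199 TPM (the deposited transcript abundance, scaled for length and depth), and the summed TPM of 8 epithelial markers was 382 to 3222 in control and 918 to 1271 in GDNF cultures. Stromal markers summed to 344 to 1810 TPM in control and 431 to 1485 TPM in GDNF cultures, endothelial markers to 20.9 to 49.1 and 19.7 to 35.8 TPM, and leukocyte markers to 4.82 to 9.32 and 4.92 to 44.7 TPM. Among the markers, up to 2 of 6 endothelial genes and 1 of 5 leukocyte genes were at 0 in a culture, and the part of these cell types in the histone values was not tested.

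The stem-loop, where processing normally ends a histone mRNA, was searched for by its consensus of 16 bases after the stop codon, on the coding strand of GENCODE M21 transcripts (GRCm38). Of 67 members matched to a transcript, 46 held it, against 0.251% of 47808 coding transcripts. Its start lay 21 to 58 bases (median 31) after the stop codon. Of the 21 members without a match, 17 had models with fewer than 75 bases after the stop codon, so that the letters may lie outside the model. The stem-loops of 7 members with high TPM for their class are shown because counting in most members stopped just beyond them. Capitals mark the stem-loop.
Hist1h4d, chr13:23581950-23581965, plus strand: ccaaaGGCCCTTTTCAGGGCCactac
Hist3h2a, chr11:58955172-58955187, plus strand: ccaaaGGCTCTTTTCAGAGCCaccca
Hist1h1c, chr13:23739512-23739527, plus strand: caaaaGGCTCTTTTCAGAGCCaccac
Hist1h2ae, chr13:23570668-23570683, minus strand: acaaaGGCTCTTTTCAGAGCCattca
Hist1h2bg, chr13:23571843-23571858, plus strand: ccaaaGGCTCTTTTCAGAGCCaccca
Hist1h4i, chr13:22040966-22040981, minus strand: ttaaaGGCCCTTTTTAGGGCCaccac
Hist1h3e, chr13:23561903-23561918, minus strand: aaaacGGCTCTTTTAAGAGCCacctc

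The members held 8 different stem-loops. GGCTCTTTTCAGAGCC was the commonest, in 26 members of 4 classes, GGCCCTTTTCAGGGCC was in 7 and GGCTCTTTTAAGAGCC in 6. The 12 H4 members with a match held 4 of the 8 forms, and none of these 4 was in a member of another class. In 43 of the 46 members the RefSeq gene ended within 10 bases of the stem-loop. GENCODE continued more than 100 bases past it in 23 of the 46, and in 14 members the letters AATAAA, the usual signal for polyadenylation, followed the stem-loop. The letters were searched for anywhere up to the end of the GENCODE model, 4884 bases past the stem-loop in *Hist1h1d*. They were not always near that end, so a match need not be a signal in use. Reads from such longer forms, beyond the RefSeq end, were not part of the deposited counts.

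Histone RNA was a small share of each library, 0.0239 to 0.0315% of counts. Levels between genes were compared per length, in TPM of whichever transcript of a gene drew most counts on average. *Hist1h2bc*, an H2B gene at chr13:23684199-23692480 (GRCm38), stood highest with a mean of 160 TPM over the 8 cultures and a range from 133 to 190. *Hist1h4d*, an H4 gene at chr13:23581568-23581969, followed at 149 TPM, from 119 to 181, and these neighbours in the order overlapped. *Hist3h2a*, an H2A gene at chr11:58954685-58955192, came next at 58.2 TPM, with 52.8 to 65.5 TPM over the cultures. The linker histone gene *Hist1h1c* had 47.1 TPM, ranging from 27.8 to 67.3. The values of *Hist1h2ae* (33.7 TPM, 21.6 to 61.5) and *Hist1h1e* (29.4 TPM, 24.7 to 36.6) overlapped each other. Among H3 genes, *Hist1h3e* (4.36 to 17.3 TPM), *Hist1h3d* (5.78 to 20.7 TPM) and *Hist1h3i* (8.29 to 12.6 TPM) stood highest and overlapped.

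Few genes carried most of the signal. *Hist1h2bc* alone took 39.7% of all member counts, between 35.8 and 43.8% in each culture, and together with *Hist1h4d*, at 12.2%, it held 51.8%. The *Hist1h2bc* counts add 2 listed transcripts that may hold some of the same reads, so its share may be overstated. Shares of counts are not scaled for length. The 6 genes with the most counts held 74.9%. Of the 68 members, 13 had a mean of at least 10 TPM and 48 of at least 1 TPM. The plot of levels by class shows a spread of this kind in every class.

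**Figure D1:**
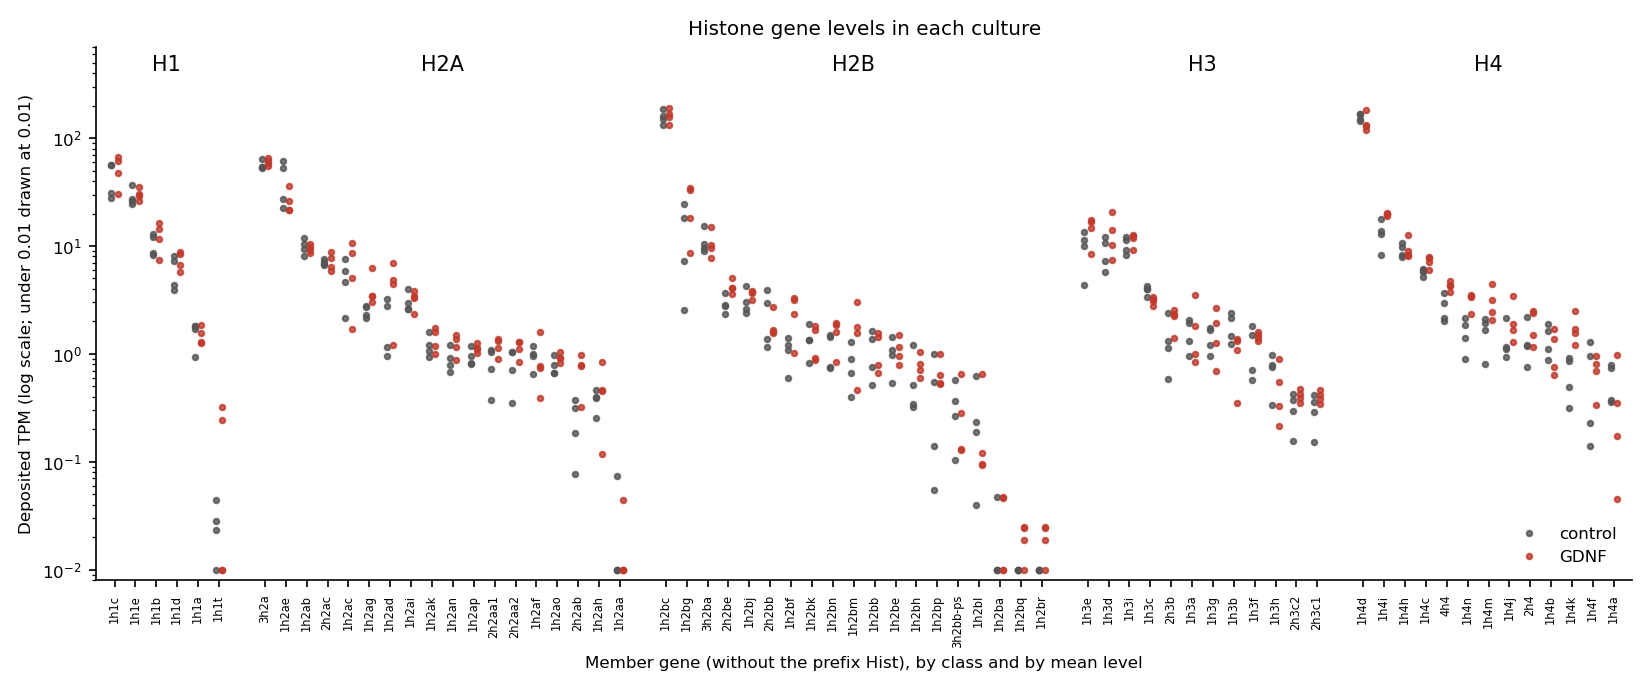
Deposited TPM (log scale) of each of the 68 members in each culture, ordered by class and then by mean level, with control cultures in grey and GDNF cultures in red. A small number of genes stand far above the others of their class, such as Hist1h2bc at 160 TPM and Hist1h4d at 149 TPM on average, and the colours overlap for most genes.

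The 3 germ cell members were close to 0. *Hist1h1t*, the testis linker histone gene, had 0 to 9 counts per culture, *Hist1h2aa* 0 to 2 and *Hist1h2ba* 0 to 1, and a count of 0 allows up to 3. That limit covers counting error only.

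Both H2B genes with high values and no stem-loop in their GENCODE models, *Hist1h2bc* and *Hist2h2be*, have long models, with 742 and 2192 bases after the stop codon. *Hist1h2bc* was listed as 2 transcripts, of 728 and 469 bp. The 728 bp transcript had 5986, 7022, 7991 and 5374 counts in control cultures 3, 7, 14 and 21, and 4832, 5685, 6732 and 4649 counts in GDNF cultures 6, 12, 17 and 22. The 469 bp transcript had 3182, 3829, 4475 and 2922 counts in those controls and 2577, 3255, 3867 and 2760 counts in the GDNF cultures. The longer transcript therefore had 1.79 to 1.88 times the counts of the shorter in controls and 1.68 to 1.88 times in GDNF cultures, and the groups overlapped. For *Hist1h2be*, listed with transcripts of 445 to 2506 bp, the longest had 1.76 to 2.46 times the counts of the shortest in controls and 2.30 to 3.81 times in GDNF cultures. These groups overlapped too, and the shortest had only 31 to 100 counts per culture. The ratios for both genes are of counts not scaled for length, so they do not rank the transcripts by level. Reads that fit several transcripts may appear in the count of each, so sums for *Hist1h2bc*, *Hist1h2be* and *Hist1h2bp*, the only members with several transcripts, may count some reads more than once.

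Summed per class, H2B had 162 to 251 TPM, H4 173 to 230, H2A 114 to 157, H1 66.6 to 122 and H3 29.7 to 61.4 over the 8 cultures. The ranges of H2B and H4 overlapped, as did those of H2A and H1, though H2A lay above H1 within every culture. H3 lay below every other class in all cultures. The replacement variant genes *H3f3a* and *H3f3b*, which encode H3.3, had 1106 and 968 TPM on average, against 46.4 TPM for the 12 H3 members summed. *H2afz*, which encodes H2A.Z, had 773 TPM and *H1f0*, a linker histone gene used by resting cells, 139 TPM, while the 18 H2A members summed to 132 TPM and the 6 H1 members to 96.2 TPM. Since poly-A selection treats these classes of mRNA differently, the gap need not reflect the amounts in the cells.

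After the GDNF pulse, no histone member passed an adjusted p of 0.05 (edgeR quasi-likelihood test, Benjamini-Hochberg over 16557 genes), and none of the other genes did. Of the 68 members, 59 had enough counts to be tested. At an unadjusted p of 0.05, 5 members were lower in GDNF cultures and 0 were higher. Over all genes tested the corresponding shares were 12.9% lower and 9.25% higher, so 5 of 59 (8.47%) is below the background. Without control culture 3 the count of lower members was 0, as it was without GDNF culture 22. Over all genes tested, 1374 and 1321 were lower in these fits. Each of the 5 members missed that threshold in 2 to 7 of the 8 fits that left out a culture. DESeq2 placed 0 members past an adjusted p of 0.05, but gave an adjusted p for only 4 of them. Of the 9170 genes to which it gave an adjusted p, 12.4% were lower and 2.3% higher past that threshold. At an unadjusted p of 0.05, DESeq2 had 6 members lower and 0 higher, against 2479 lower and 1406 higher over all 16557 genes tested. The median log2 fold change of the members tested was -0.11, with 22 above 0 and 37 below, against 0.033 for all genes. It became 0.10 when only library size was scaled, where the median of all genes was 0.25, and 0.15 with an offset for transcript length, where it was -0.034. Of the 1855 genes tested with a transcript of at most 1000 bp, 28.9% were lower and 2.96% higher at an unadjusted p of 0.05, and their median was -0.31. The part of transcript length in the histone values was otherwise not tested.

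**Figure D2:**
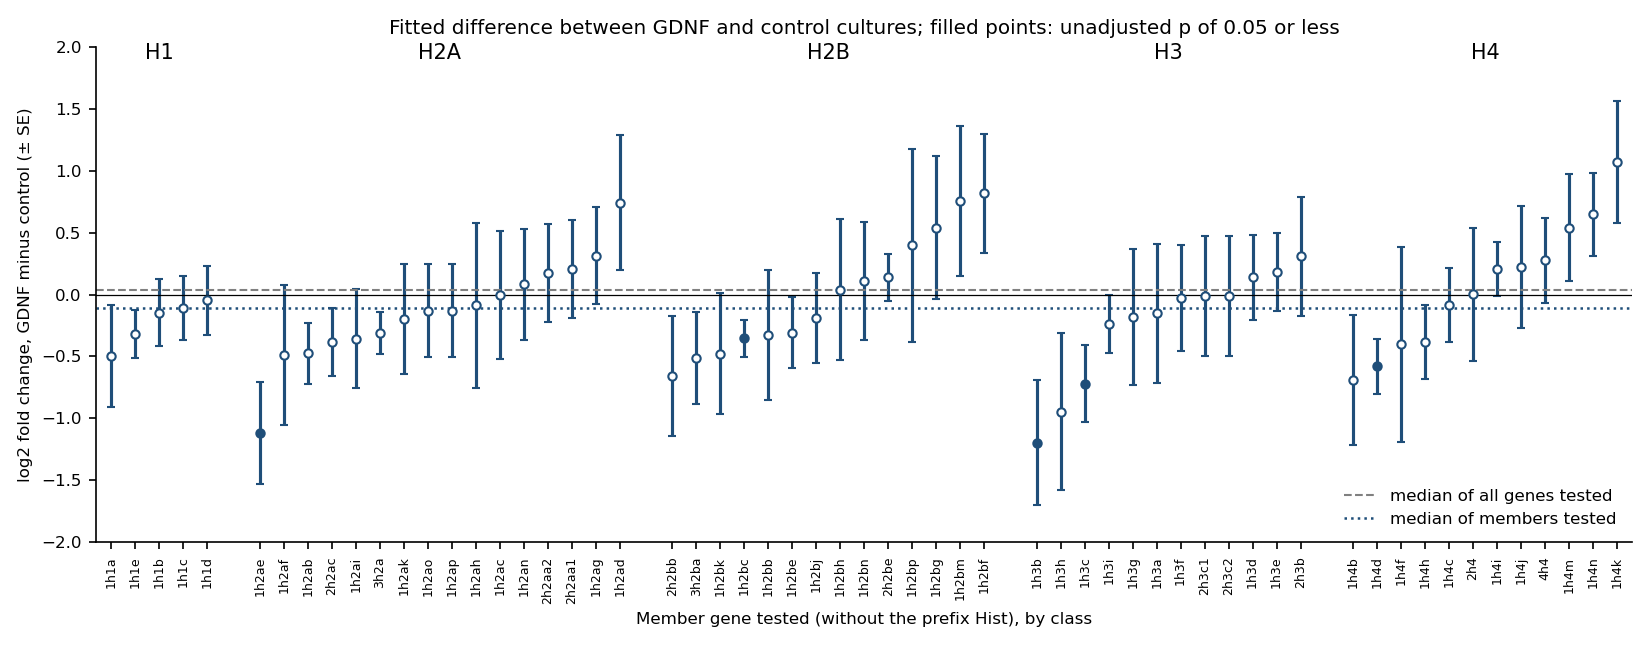
Fitted log2 fold change (GDNF minus control) with its standard error for the 59 members tested, grouped by class. Filled points, all below 0, are the 5 members at an unadjusted p of 0.05, and the lines for the medians of members (-0.11) and of all genes tested (0.033) lie close together.

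Levels per culture are given from here on in CPM, counts scaled to library size with edgeR's trimmed mean factors (TMM), and fold changes on the log2 scale with their standard errors (SE). Across the classes, the summed CPM was lower on average after GDNF in each class with TMM scaling, but H1 and H3 turned higher with library size alone and with the length offset, H1, H2B and H3 were higher in deposited TPM, and H3 was at 0.036 without control culture 14. The groups overlapped in all classes. In deposited TPM the means in controls and GDNF cultures were 89.2 and 103 for H1, 134 and 130 for H2A, 199 and 217 for H2B, 41.5 and 51.2 for H3, and 197 and 195 for H4. H2A lay between 36.4 and 66.5 CPM in controls (48.2 ± 14.2, SD, n = 4) and between 32.7 and 37.8 CPM in GDNF cultures (34.8 ± 2.41, SD, n = 4), a log2 ratio of -0.47, or -0.28 without control culture 3. H4 had 50.1 ± 10.6 CPM in controls and 37.7 ± 6.49 CPM in GDNF cultures (SD, n = 4), a log2 ratio of -0.41, or -0.26 without control culture 3. The H2B sum, mostly *Hist1h2bc*, was 138 ± 14.7 and 113 ± 13.6 CPM, for a log2 ratio of -0.29. H1 summed to 44.1 ± 8.22 CPM in controls and 38.9 ± 6.26 CPM in GDNF cultures (SD, n = 4), a log2 ratio of -0.18, and -0.29 (without control culture 7) to -0.071 (without control culture 14) with a culture left out. In H3 the controls lay at 11.9 CPM or more (mean 13.8) and the GDNF cultures reached 14.8 CPM (mean 13.1), with a log2 ratio of -0.079. No p is given for these sums over members.

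**Figure D3:**
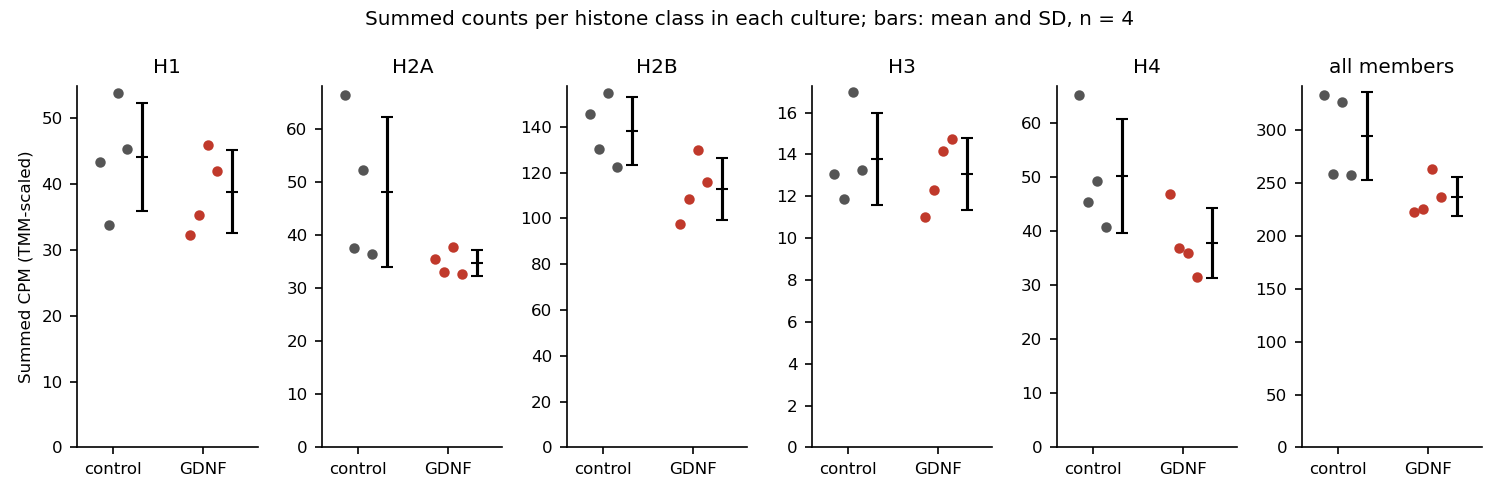
Summed TMM-scaled CPM per histone class in each culture, with the mean and SD of 4 cultures per group beside the points. The groups overlap in every class, and control culture 3 is highest for H2A (66.5 CPM) and H4 (65.1 CPM).

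Of the H1 genes, which encode linker histones, 5 were tested and all had log2 fold changes below 0 with TMM scaling, from -0.50 to -0.046, though 3 of them turned with library size alone and with the length offset, and none was at an unadjusted p of 0.05. *Hist1h1c* had 17.3, 14.1, 25.3 and 23.4 CPM in control cultures 3, 7, 14 and 21, and 11.7, 17.1, 22.4 and 23.1 CPM in GDNF cultures 6, 12, 17 and 22. Its values overlapped and its log2 fold change was -0.11 ± 0.26 (SE). *Hist1h1e* had 14.8 ± 2.77 CPM in controls and 11.9 ± 1.72 CPM in GDNF cultures (SD, n = 4), with a log2 fold change of -0.32. The values for *Hist1h1b* were -0.15, for *Hist1h1a* -0.50 and for *Hist1h1d* -0.046. The 3 that turned were *Hist1h1b*, *Hist1h1c* and *Hist1h1d*.

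Among the 16 H2A genes tested, 1 was lower at an unadjusted p of 0.05 and 0 were higher. That gene, *Hist1h2ae* (chr13:23570663-23571220), had 29.4, 9.53, 18.2 and 7.21 CPM in control cultures 3, 7, 14 and 21, and 6.46, 7.31, 10.1 and 5.73 CPM in GDNF cultures 6, 12, 17 and 22. Controls 3 and 14 were high, and controls 7 and 21 lay within the range of the GDNF cultures. The means were 16.1 ± 10.1 and 7.41 ± 1.92 CPM (SD, n = 4). The log2 fold change was -1.12 ± 0.41 (SE), with an adjusted p of 0.179 by edgeR. Without control culture 3 the log2 fold change was -0.65, at an unadjusted p of 0.0857 in the edgeR test. *Hist3h2a* had a log2 fold change of -0.31, *Hist1h2ab* of -0.47, *Hist2h2ac* of -0.38 and *Hist1h2af* of -0.49 (-0.24 without GDNF culture 22). On the other side, *Hist1h2ad* was at 0.74 ± 0.54 (SE) and *Hist1h2ag* at 0.31 ± 0.39 (SE).

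Of the 14 H2B genes tested, *Hist1h2bc* was the only one at an unadjusted p of 0.05. It had 127, 113, 133 and 98.8 CPM in control cultures 3, 7, 14 and 21, and 79.9, 89.2, 109 and 91.8 CPM in GDNF cultures 6, 12, 17 and 22. GDNF culture 17 lay above control culture 21, so the groups overlapped, and the log2 fold change was -0.35 ± 0.15 (SE), with an adjusted p of 0.211 by edgeR. With library size alone it was -0.13, and with the length offset -0.043. In deposited TPM, which carries no TMM scaling, the means were 159 ± 23.1 in controls and 162 ± 23.3 in GDNF cultures (SD, n = 4). *Hist1h2bg* varied within both groups, with 1.01, 2.11, 5.25 and 6.54 CPM in control cultures 3, 7, 14 and 21 and 2.16, 4.23, 7.68 and 7.63 CPM in GDNF cultures 6, 12, 17 and 22. Its groups overlapped and its log2 fold change was 0.54 ± 0.58 (SE). *Hist3h2ba* was at -0.51 (-0.12 without control culture 3), *Hist2h2bb* at -0.66 (-0.33 without control culture 14) and *Hist2h2be* at 0.14. The highest values of the class were those of *Hist1h2bf* (0.82 ± 0.48, SE) and *Hist1h2bm* (0.76 ± 0.61, SE), the latter 0.28 without GDNF culture 6.

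All 12 H3 genes were tested, and 2 were lower at an unadjusted p of 0.05. These 2 were also the only members whose groups did not overlap with GDNF lower, on TMM-scaled CPM, where 6.26% of all genes tested behaved in this way. *Hist1h3c* had 1.38, 1.19, 1.27 and 1.12 CPM in control cultures 3, 7, 14 and 21, and 0.874, 0.668, 0.739 and 0.731 CPM in GDNF cultures 6, 12, 17 and 22. Every GDNF culture lay below every control, but in deposited TPM GDNF culture 6 (3.40) lay above control culture 3 (3.36). Its log2 fold change was -0.72 ± 0.31 (SE), with an adjusted p of 0.213 by edgeR. *Hist1h3b* had 0.485, 0.418, 0.683 and 0.571 CPM in those controls and 0.0863, 0.249, 0.318 and 0.285 CPM in the GDNF cultures, and again every GDNF culture was lower, whereas in deposited TPM GDNF cultures 17 (1.38) and 22 (1.31) lay above control culture 3 (1.23). The log2 fold change was -1.20 ± 0.51 (SE), with an adjusted p of 0.210 by edgeR, and at this low level counting error is part of the spread. *Hist1h3h* was at -0.95, *Hist1h3i* at -0.24, *Hist1h3d* at 0.14, *Hist1h3e* at 0.18 and *Hist2h3b* at 0.31.

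Of the 12 H4 genes tested, *Hist1h4d* was lower at an unadjusted p of 0.05. It had 53.0, 34.7, 38.1 and 30.4 CPM in control cultures 3, 7, 14 and 21, and 35.7, 23.9, 24.2 and 20.7 CPM in GDNF cultures 6, 12, 17 and 22. GDNF culture 6 lay above controls 7 and 21, and the other GDNF cultures lay below every control. The log2 fold change was -0.58 ± 0.22 (SE), with an adjusted p of 0.186 by edgeR and 0.0698 by DESeq2. Without control culture 3 it was -0.40, at an unadjusted p of 0.0769 in the edgeR test. In deposited TPM the means were 157 ± 12.1 in controls and 140 ± 27.8 in GDNF cultures (SD, n = 4).

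In 2 other H4 genes every GDNF culture lay above every control, in TMM-scaled CPM and in deposited TPM, as did 6.99% of all genes tested on the CPM scale. *Hist1h4n* had 0.568, 0.637, 0.843 and 0.905 CPM in control cultures 3, 7, 14 and 21, and 0.917, 1.30, 1.23 and 1.19 CPM in GDNF cultures 6, 12, 17 and 22. GDNF culture 6 and control culture 21 were nearly equal, and the log2 fold change was 0.65 ± 0.34 (SE). *Hist1h4k* had 0.111 to 0.235 CPM in controls and 0.246 to 0.483 CPM in GDNF cultures, with a log2 fold change of 1.07 ± 0.49 (SE). Neither reached an unadjusted p of 0.05 (0.083 and 0.0555 in the edgeR test). *Hist1h4i* was at 0.21, *Hist1h4h* at -0.38 (-0.20 without control culture 3), *Hist1h4c* at -0.085, *Hist1h4b* at -0.69 and *Hist4h4*, the single Hist4h gene, at 0.28.

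**Figure D4:**
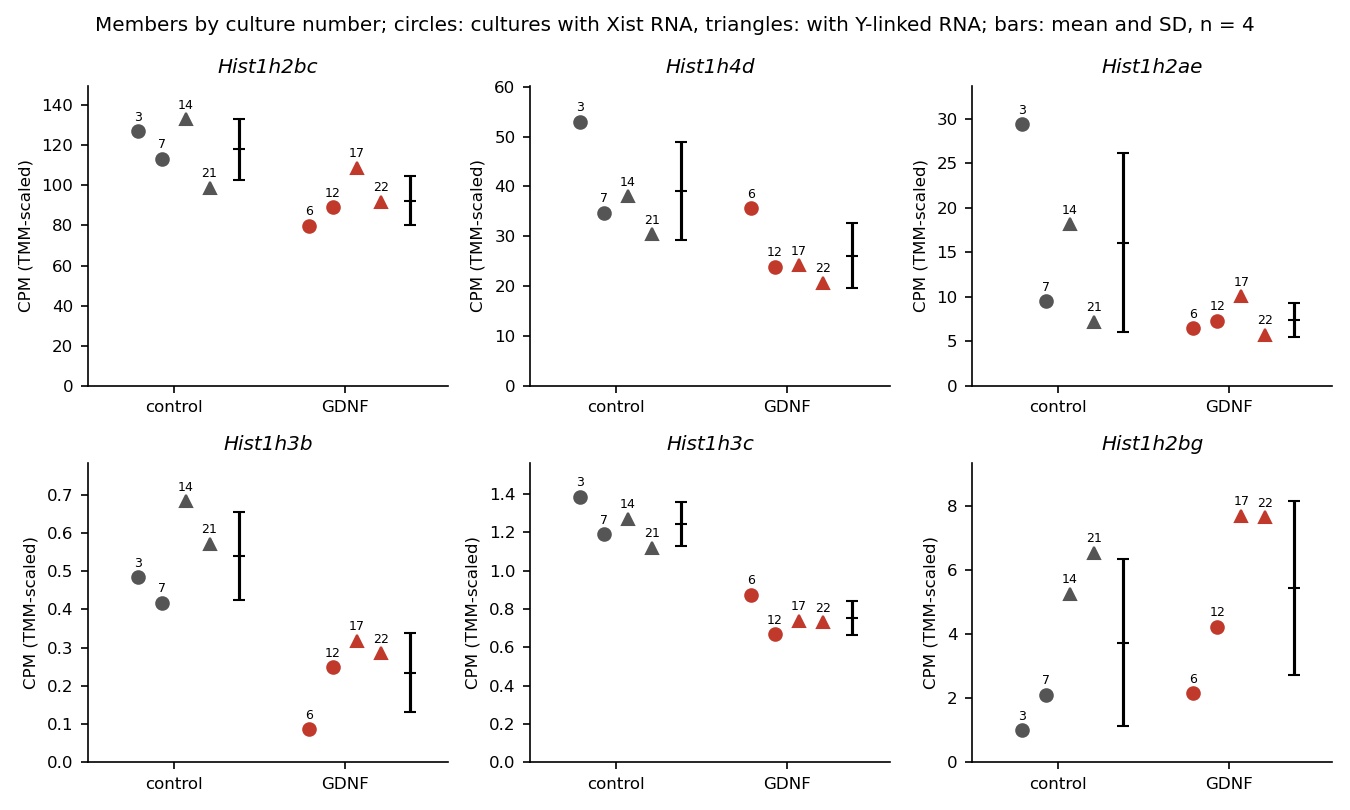
TMM-scaled CPM of 6 members in each culture, labelled by culture number, with the mean and SD of 4 cultures per group. Hist1h3b and Hist1h3c do not overlap between groups on this scale, though they do in deposited TPM, and the high controls of Hist1h2ae are cultures 3 and 14. In both groups, Hist1h2bg is higher in cultures with more Y-linked than Xist RNA (triangles) than in those with more Xist RNA (circles).

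Many H2A and H2B genes lie head to head and share the upstream region between them, and 12 such pairs, with starts at most 1000 bp apart, were found among the members. Their starts were 163 to 280 bases apart. The H2B gene had the higher TPM in all 8 cultures in 2 pairs and the H2A gene in 5 pairs. Among these 5 are *Hist1h2ao* with *Hist1h2bq* and *Hist1h2ap* with *Hist1h2br*, which are copies with the same counts and so not separate observations. Their H2B genes had 0 to 5 counts per culture. *Hist1h2bc* exceeded its partner *Hist1h2ac* 27.6 times on average (160 against 5.81 TPM), and *Hist1h2ai* exceeded *Hist1h2bl* 12.3 times. The TPM of *Hist1h2bc* is that of a 728 bp transcript. *Hist1h2ac* was counted over 487 bp, and its RefSeq gene ends 4 bases past the stem-loop, where GENCODE continues for 2010 bases. The part of these unlike models in the gap was not tested. *Hist1h2ag* and *Hist1h2bj* were close, at 3.25 and 3.35 TPM. For the pair of *Hist1h2ae* and *Hist1h2bg*, 179 bases apart, the log2 fold changes had opposite signs, -1.12 and 0.54, and the difference between them was not tested.

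**Figure D5:**
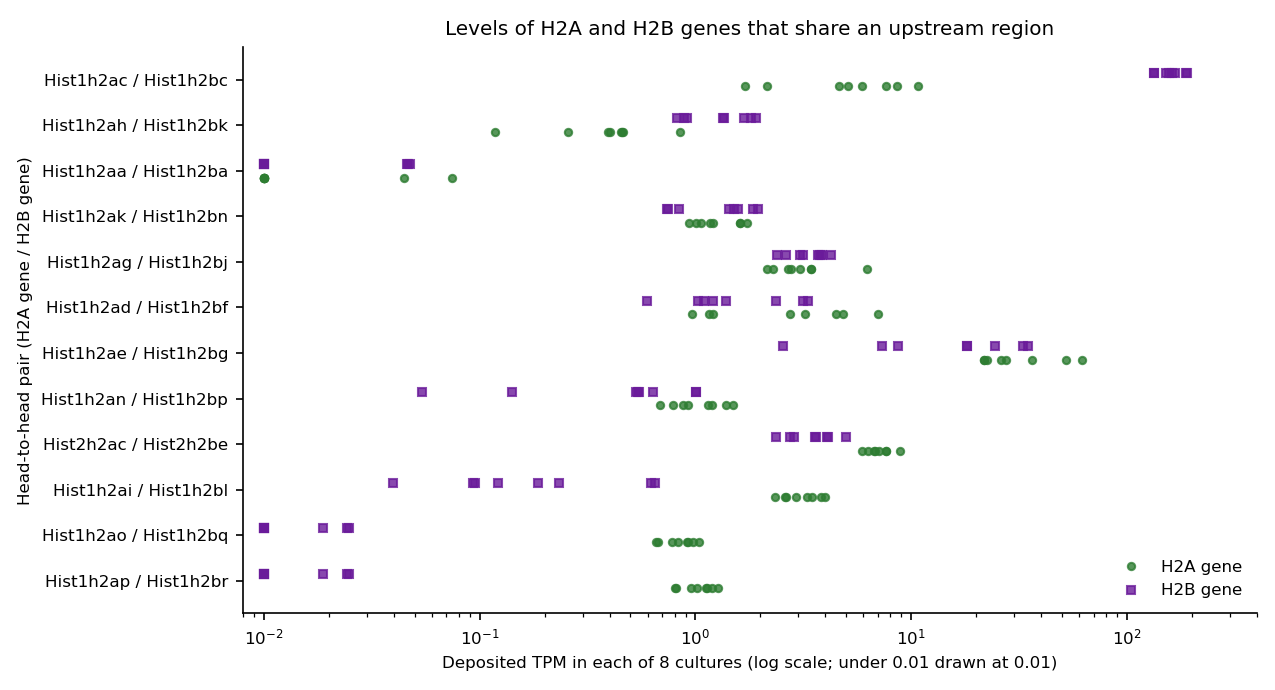
Deposited TPM (log scale) of the H2A gene (green circles) and the H2B gene (purple squares) of 12 head-to-head pairs, a point for each of 8 cultures. Partners differ most in the pair of Hist1h2ac and Hist1h2bc (5.81 and 160 TPM on average) and in the pairs at the bottom, whose H2B genes are near 0.

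The region between *Hist1h2ae* and *Hist1h2bg* is shown because the fold changes of its genes had opposite signs, and that of *Hist1h1c* as the most abundant H1 gene. Each sequence is the 120 bases before the RefSeq start (GRCm38), on the strand of the gene, with motif letters of either strand in capitals.
Hist1h2ae, chr13:23571221-23571340, minus strand: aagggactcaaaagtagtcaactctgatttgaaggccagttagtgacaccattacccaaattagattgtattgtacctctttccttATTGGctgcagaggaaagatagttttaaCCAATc
Hist1h2bg, chr13:23571280-23571399, plus strand: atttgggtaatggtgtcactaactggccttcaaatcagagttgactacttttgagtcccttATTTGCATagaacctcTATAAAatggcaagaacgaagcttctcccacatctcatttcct
Hist1h1c, chr13:23738687-23738806, plus strand: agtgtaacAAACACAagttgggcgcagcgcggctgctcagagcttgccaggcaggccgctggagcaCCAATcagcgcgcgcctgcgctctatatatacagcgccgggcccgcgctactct

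The motifs were searched on both strands over 250 bases before the start of 62 members with a listed promoter and of all 27025 listed promoters. CCAAT was in 51 members (82.3%, against 34.5% of all), among them all 6 H1, all 18 H2A and all 16 H2B promoters but 3 of 12 H4 promoters. TATAAA was in 46.8% of members and 13.0% of all promoters. ATTTGCAT, an octamer, was in 13 of 62 members (against 1.61% of all), 7 of them H2A and 6 H2B genes. AAACACA was in 5 of 6 H1 promoters and in 9 members in all, or 14.5%, against 6.22% of all promoters. Promoters of a head-to-head pair overlap, so their matches are not independent.

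Near-identical copies limited what could be told of single genes. *Hist1h2ao* and *Hist1h2ap* had the same count in all 8 cultures, as did *Hist1h2bq* and *Hist1h2br*, and *Hist2h3c1* and *Hist2h3c2*. *Hist2h2aa1* and *Hist2h2aa2* differed by at most 4 counts. Copies of this kind may hold the same reads, and their counts cannot be assigned to a single gene. The deposited lengths of 6 of these genes were exactly 2 times the length of the RefSeq gene, so their TPM may be understated. *Hist1h4n* (732 against 406 bp) and *Hist1h2bq* and *Hist1h2br* (4242 against 3788 bp each) were also listed as longer than the RefSeq gene, so the same may hold for them. The difference between the groups was small for *Hist1h2ao* and *Hist1h2ap* (log2 fold change -0.13 each), for *Hist2h3c1* and *Hist2h3c2* (-0.011 each), and for *Hist2h2aa1* and *Hist2h2aa2* (0.20 and 0.17).

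The cultures were split by whether *Xist* or Y-linked RNA had more counts, and this split was examined after the values were seen. *Xist* led in GDNF cultures 6 and 12 and control cultures 3 and 7. Y-linked RNA led in GDNF cultures 17 and 22 and control cultures 14 and 21. Cultures are named below by the leading RNA. GDNF culture 6 and control culture 3 held both, with 92343 and 24145 *Xist* counts and 814 and 221 Y-linked counts. GDNF culture 12 and control culture 7 had 0 Y-linked counts. Cultures named for Y-linked RNA had 0 to 139 *Xist* counts. *Hist1h2bg*, an H2B gene, had 1.01 to 4.23 CPM in the 4 cultures with *Xist* and 5.25 to 7.68 CPM in the 4 with Y-linked RNA, without overlap. In an edgeR fit with treatment as a term, its log2 fold change (*Xist* minus Y-linked) was -1.58 ± 0.33 (SE), with an adjusted p of 0.0871. *Hist1h1c*, a linker histone gene, had 11.7 to 17.3 CPM and 22.4 to 25.3 CPM, again without overlap, with a log2 fold change of -0.65 ± 0.17 (SE) and an adjusted p of 0.159 by edgeR. *Hist1h2ac* (-1.12), *Hist1h2ad* (-1.10), *Hist1h3d* (-0.69) and *Hist1h2bp* (-1.66) were also lower at an unadjusted p of 0.05, and *Hist3h2ba* was at 0.70. These 6 lower members and 1 higher member of 59 compare with 5.22% lower and 7.13% higher over all genes at an unadjusted p of 0.05. No member passed an adjusted p of 0.05, which 0.411% of all genes did. Among the lower members, *Hist1h2ac* (at most 1.40 against at least 1.67 CPM) and *Hist1h3d* (at most 3.12 against at least 3.13 CPM) did not overlap either. The share of all genes without overlap in this split was not counted. Lack of overlap is therefore only described here, for members and markers alike. Markers of other cell types also moved with this split. The summed endothelial markers had 19.7 to 23.0 TPM in cultures with *Xist* and 25.8 to 49.1 TPM in cultures with Y-linked RNA, without overlap, and *Emcn* and *Pecam1* were the 2 of its 6 genes that did not overlap. Of 8 stromal markers, *Dcn* alone did not overlap, with 3.75 to 9.45 TPM against 27.5 to 178 TPM, while the list summed to 344 to 1279 and 793 to 1810 TPM. Epithelial markers summed to 915 to 1985 and 382 to 3222 TPM, and leukocyte markers, of which *Ptprc* did not overlap and was lower with Y-linked RNA, to 5.94 to 18.4 and 4.82 to 44.7 TPM. The part of these cell types in the result was not tested. A test of whether the GDNF difference varied with this split gave 1 member at an unadjusted p of 0.05 and 0 at an adjusted p of 0.05 by edgeR. Over all 16557 genes tested, the same test gave 94 and 0.

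Genes that act on histones and on the cell cycle were taken from fixed lists. Over all genes tested, 12.9% were lower and 9.25% higher at an unadjusted p of 0.05, and 28.9% and 2.96% of those with a transcript of at most 1000 bp. Of 12 replacement variants, 5 were lower and 0 higher at an unadjusted p of 0.05, with a median log2 fold change of -0.42. *H2afz* (-0.62), *H3f3a* (-0.69) and *H1f0* (-0.41) were among the lower ones, *H2afx* was at -0.43 and *H3f3b* at -0.19. Without control culture 3, *H2afz* was at -0.40 and *H3f3a* at -0.46. DESeq2 placed 3 of the 12 past an adjusted p of 0.05, all lower, where 12.4% of genes with an adjusted p were lower. Among the 3 were *H2afz* and *H3f3a*, with DESeq2 adjusted p of 0.0386 and 0.034. The smallest DESeq2 adjusted p among the 4 histone members that had one was 0.0698. Of 13 genes of histone transcription and mRNA 3′ processing, 1 was lower and 0 higher, with a median of -0.040. *Slbp*, which binds the stem-loop, was at -0.25 and *Npat*, a coactivator of histone transcription, at 0.20. Of 14 histone chaperone and chromatin assembly genes, 3 were lower and 1 higher (median -0.16), and *Nasp*, a chaperone, was at -0.068. Of 20 DNA replication and S phase genes, 3 were lower and 0 higher (median -0.20). Among these, *Pcna*, the sliding clamp of replication, was at -0.58 ± 0.16 (SE), with an adjusted p of 0.167 by edgeR and 0.0257 by DESeq2. Of 14 mitosis genes, 4 were lower and 1, *Mki67* (0.49), higher, with a median of -0.34, and *Top2a* was at -0.045. As the libraries come from whole cultures, the number of dividing cells and the RNA per cell cannot be told apart, and neither was tested.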

How the data were processed

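Tubuloid RNA from 8 cultures, grouped by their titles, was sequenced by the authors from SMART-Seq v4 libraries with poly-A selection. The submitters' processing notes name STAR, featureCounts, DESeq2 and mm10/GRCm38, and versions, strand and rules for multi-mapping reads are not given in the sources used here. The authors deposited whole-number counts per RefSeq transcript without normalization, with FPKM (counts per length and depth) and TPM values. FPKM was deposited by the authors and used here only to obtain transcript lengths. Deposited TPM served for levels between genes.

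Counts were summed per symbol and tested with edgeR 4.0.16 (filterByExpr, TMM, glmQLFit, glmQLFTest, unpaired, Benjamini-Hochberg, R 4.3.3), with DESeq2 1.42.0, other scalings and filters, and leave-one-out fits as alternatives. The SE is the log2 fold change divided by the square root of F. Tests were checked on simulated counts. Total counts were 72991721 to 97490625 per culture, so that counting error matters mainly below about 1 CPM. Cultures were told apart by whether *Xist* or summed Y-linked RNA had more counts. The Python version was 3.11.15. Coordinates and promoters are RefSeq, GRCm38, and stem-loops GENCODE M21.

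Named members were all H1 genes, the 4 with the highest TPM and the 2 highest and 2 lowest fold changes of each other class, germ cell members, Hist3h and Hist4h members, and 11 genes of other lists. Further genes were named after their values were seen: those outside that rule that share counts with a copy or form a head-to-head pair. Members and lists were chosen with earlier results of these data known.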

Additional observations from a re-analysis of the deposited data

Results flagged for a closer look

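In 8 of 104 sets of 4 cultures (a class or named gene in a treatment group), the highest or the lowest culture lay apart from the others by more than Dixon's 95% limit for 4 values, and chance gives about 1 in 20, or 5.2 sets. *Hist1h1b* had 4.12 CPM in control culture 7, against 5.82 to 6.02 CPM in the other controls. *Hist2h2ac* had 2.71 CPM in control culture 3, against at most 2.08 CPM in the other controls. *Hist3h2ba* had 6.08 CPM in control culture 3, against 2.38 to 3.01 CPM. *Pcna* had 108 CPM in the same culture, against 74.5 to 75.7 CPM. *Top2a* had 81.8 CPM in control culture 21, against 37.8 to 43.6 CPM. In GDNF culture 6, *Hist1h2ag* had 1.57 CPM against 0.718 to 0.811 CPM in the other GDNF cultures, *Hist2h2bb* 0.723 CPM against 0.372 to 0.411 CPM, and *Slbp* 153 CPM against 113 to 120 CPM.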

How the results depend on the processing

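No paired analysis was possible because the groups share no culture numbers. No member passed an adjusted p of 0.05 in any of the fits, those leaving out a culture and DESeq2 included. In each edgeR fit 0 of all genes passed it, so those fits could not set the members apart. DESeq2 placed 1346 genes past it. With library size alone, where the median of all genes moved to 0.25, 1 member was lower and 2 were higher at an unadjusted p of 0.05. Over all 16557 genes tested, 850 were lower and 3299 higher at that threshold. The median log2 fold change of members was 0.10, and the log2 ratio of summed CPM was -0.070 for H2B, 0.14 for H3 and -0.083 for all members. The fold change then turned for *Hist1h1b* (0.076), *Hist1h1c* (0.10), *Hist1h1d* (0.16), *Hist1h4c* (0.15), *Top2a* (0.16), *H3f3b* (0.043) and *Nasp* (0.15). With the length offset, 1 member was lower and 2 were higher, against 1990 lower and 931 higher over all 16557 genes tested. The median of members was 0.15, and the ratios were 0.11 for H1, -0.16 for H2A, -0.0076 for H2B, 0.20 for H3 and -0.027 for all members. Here the fold change turned for *Hist1h1b* (0.15), *Hist1h1c* (0.18), *Hist1h1d* (0.22), *Hist1h3i* (0.055), *Hist1h4c* (0.17) and *Npat* (-0.13). The stricter filter tested fewer members, 21, and had 3 lower, against 2000 of all 13903 genes it tested. The cause of the other shifts was not tested.

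With each culture left out in turn, 0 to 6 members were lower (0 without GDNF culture 22 and 0 without control culture 3) and 0 to 2 higher at an unadjusted p of 0.05. Over all genes tested in these fits, 1321 to 2577 were lower and 871 to 1713 higher. The fold change spanned 0 for *Hist1h1b* (-0.26 to 0.035), *Hist1h1c* (-0.25 to 0.058), *Hist1h1d* (-0.18 to 0.11), *Hist1h2ag* (-0.026 to 0.43), *Hist1h3d* (-0.13 to 0.31), *Hist1h4c* (-0.23 to 0.046), *Top2a* (-0.17 to 0.23) and *Nasp* (-0.25 to 0.010). Counting each pair of copies once, a choice made after seeing the data, changed no count. Of 795 alternative values of 45 named genes, 765 kept their direction and their side of the threshold. In the edgeR fits no gene passed an adjusted p of 0.05, so only the direction could differ there. Genes below about 1 CPM rest on few counts, which limits what these libraries can show for them.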
